A study of Mus musculus with 4 samples.

Results

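The liver of mice 48 h after an overdose of acetaminophen (APAP) was described from 2 of the 4 RNA pools of the study, 1 from APAP-treated and 1 from vehicle-treated mice, over all 27027 gene entries of the count table. The comparison took in every entry whatever its level, while the genes named below were in part chosen by their reads and folds. The animals were male C57BL/6J mice aged 9 to 12 weeks. They had been without food for 10 h overnight before they were injected with APAP (300 mg/kg) or, as controls, with 0.9% NaCl. Equal shares of hepatic RNA from 7 APAP-treated or 6 control mice were mixed, and each mixture gave 1 library. The pools at 24 h after injection were made from other mice in the same way and are set beside the 48 h values only to show where the later time point differs. With 1 library per group the spread between mice is unknown, so that no p-value is given and each difference is one between libraries.

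APAP is converted by cytochrome P450 enzymes into a reactive quinone imine that binds proteins and depletes glutathione. These enzymes are most abundant in hepatocytes around the central vein, and this is where cells die. The dead tissue is cleared by resident and recruited macrophages, stellate cells lay down a transient matrix, and surviving hepatocytes divide and regain their functions. The comparison at 48 h asks what the liver expresses once this resolution is under way.

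Expression was measured by massive analysis of cDNA ends (MACE), which sequences the 3′ ends of polyadenylated transcripts. The 48 h libraries held 5191990 reads (control) and 4938164 reads (APAP), against 4859661 and 5698778 at 24 h. Below, "reads" are the counts of the 4 libraries, and folds compare reads divided by the size factor of each library (0.933 and 1.07 at 48 h, 0.880 and 1.17 at 24 h) between APAP and the control of that time. Counts of 3 reads or fewer were set to 3 for the thresholds. The interval after a fold is its 95% exact interval from the reads of both libraries and covers counting error only. At 48 h, 16018 entries had more than 3 reads in at least 1 library and 11009 did not, and the median log2 fold of the 16018 was 0.02. Scaling by library totals would add 0.27 to every log2 fold at 48 h. The tissue carried its defining transcripts, with 225055 and 254523 reads of albumin (Alb) in the control and APAP pools at 48 h. In RNA of whole liver, fewer cells of a type and less RNA per cell cannot be told apart.

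At 48 h, 76 entries (0.474% of 16018) were at least 5-fold higher after APAP and 109 (0.680%) at least 5-fold lower. At 24 h the same threshold was passed by 0.795% (higher) and 0.634% (lower) of 16095 entries. Of the entries past it at 48 h, 51 higher entries (0.318%) and 64 lower entries (0.400%) stayed under 5-fold at 24 h. The 51 had a median fold of 6.65 at the later and 2.25 at the earlier time, and the 64 were a median of 6.90-fold and 2.28-fold lower. The folds of both time points share no library, and their ratio was therefore given an exact interval of its own. This interval lay above 1 for 25 of the 50 higher entries and below 1 for 40 of the 61 lower entries for which it could be computed, whereas over all 16695 entries it lay above 1 in 7.06% and below 1 in 8.34%. Since the entries were selected on these folds, those counts only describe them. The control pools, neither of which received APAP, also differed from each other, with 15 entries at least 5-fold higher and 15 at least 5-fold lower at 48 h than at 24 h (0.0970% each of 15459). Set against the 24 h control pool instead, 21 of the 51 higher and 26 of the 64 lower entries were still past 5-fold. In 22 of the 51 and 19 of the 64, 1 of the 48 h libraries had 3 reads or fewer.

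**Figure D1:**
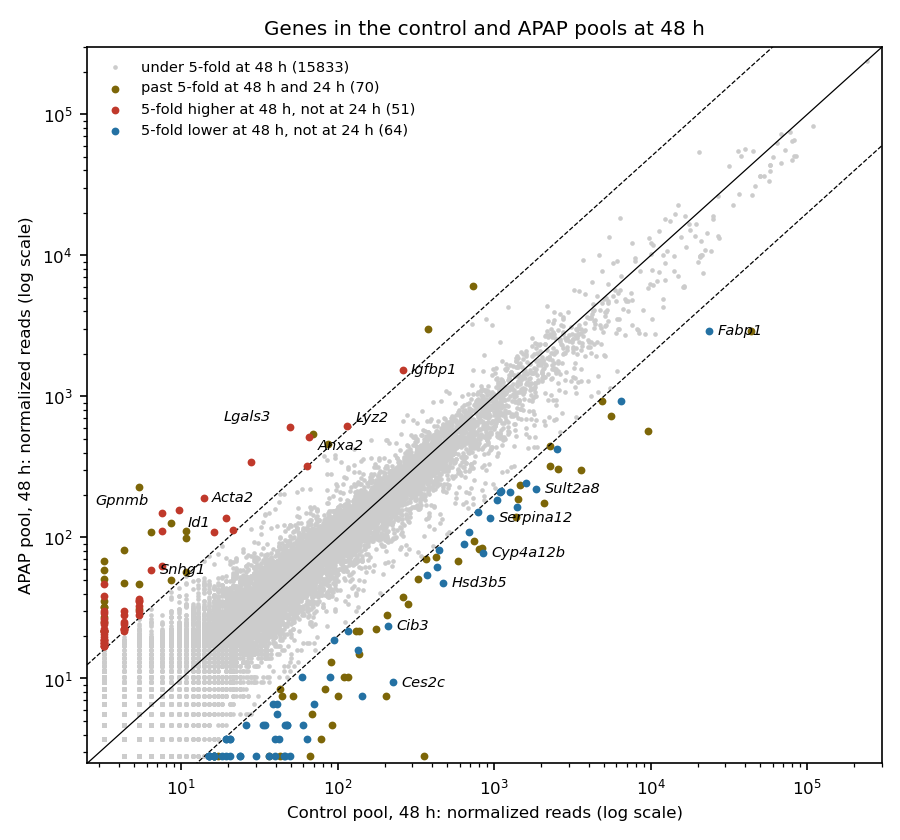
Normalized reads of 16018 entries in the control pool (x axis) and the APAP pool (y axis) at 48 h, both on log scales, with counts of 3 or fewer set to 3. The solid line marks equal levels, the dashed lines 5-fold, and olive points are entries past 5-fold at both times. The 51 red points (higher) lie mostly among genes of low control level, while the 64 blue points (lower) reach up to Fabp1 with 21917 control reads.

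A milder rule, a fold of at least 2 with an interval that excludes 1, is used below to count the members of gene lists. It held for 801 entries higher (5.0%) and 732 entries lower (4.57%) at 48 h, and for 4.85% and 4.73% of entries at 24 h. The 48 h shares are the background for every list below. Had library totals been used for scaling, 1449 would have been higher and 424 lower, and at 5-fold 138 and 78, so that the split between higher and lower genes depends on the scaling. Between the control pools the same rule held for 315 entries in 1 direction and 277 in the other (2.04% and 1.79% of 15459). Among these were 10 of the 51 higher and 22 of the 64 lower entries, whose folds thus depend on the control. Members whose 48 h fold was above or below the 24 h fold are counted below only where the interval of the ratio of both folds excludes 1.

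Genes of phagocytes that engulf dead cells led the higher genes. Gpnmb, a transmembrane glycoprotein of lipid-laden macrophages, had 1 and 7 control reads at 24 h and 48 h, and 16 and 159 reads after APAP. Its 48 h value stood far above the other 3 pools and was 19.9-fold higher than in the 48 h control (9.42 to 50.2). Gpnmb stayed under 5-fold at 24 h only because the 1 control read there was set to 3. Trem2, a lipid-sensing receptor that promotes uptake of cell debris, had 6 and 3 control reads, 17 reads at 24 h and 50 reads at 48 h after APAP, a ratio of 14.6 at 48 h (4.71 to 73.1). Against the 24 h control Trem2 was 6.87-fold higher, and with a floor of 10 reads its log2 fold was 2.13, under the 5-fold threshold. For Trem2 the 48 h fold was 6.87 times the 24 h fold (1.26 to 45.8), whereas for Gpnmb the interval of this ratio (0.0346 to 14.3) was too wide to tell, as its 24 h fold rests on 1 control read. Lgals3, galectin-3, a lectin released by activated macrophages, rested on more reads. It had 45 and 46 reads in the controls, 173 at 24 h and 644 at 48 h, which is 12.2-fold higher at 48 h (9.07 to 16.9) and 4.25 times the fold at 24 h (2.65 to 6.78). Capg, an actin-capping protein of macrophages, showed the same order, with 17 and 7 control reads against 70 and 119, and was 14.9-fold higher at 48 h (7.0 to 37.8) and 5.77-fold against the 24 h control.

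Pan-macrophage genes were past 5-fold as well. Cd68, a lysosomal glycoprotein of phagocytes, had 64 and 59 reads in the controls, 161 at 24 h and 345 at 48 h. It was 5.11-fold higher at 48 h (3.87 to 6.86), close to the threshold, and its 48 h fold was 2.71 times that at 24 h (1.78 to 4.13). Lyz2, lysozyme of myeloid cells, had 84 and 107 reads against 384 and 659, or 5.39-fold higher (4.38 to 6.67). Its 3′ end is 96.6% identical to that of Lyz1 (2 reads in the 48 h control and 31 after APAP), so that reads of the pair may have been exchanged. Other members of the 51 with known roles in leukocytes were Plek (pleckstrin, 3 against 32 reads at 48 h), Coro1a (coronin-1A, 6.82-fold higher), Lilrb4a (an inhibitory receptor, 7 against 67), Ms4a6c (5 against 35), Ptafr (the receptor of platelet-activating factor, 5 against 38) and Lpxn (leupaxin, 0 against 26, at least 7.58-fold higher). Of these, Ptafr and Ms4a6c had a 48 h fold above the 24 h fold (10.5 times, 2.67 to 44.6, and 9.08 times, 2.10 to 41.6), and Coro1a was 2.31 times its 24 h fold (1.02 to 5.25). As the 51 were selected on both folds, these ratios only describe them. Against the 24 h control, Ptafr was 2.41-fold and Ms4a6c 2.89-fold higher, as both had more reads there (13 and 10) than in the 48 h control.

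The start regions of 3 of the 51 higher genes are shown because they match TGANTCA. This is a loose form of the site of activator protein 1 (AP-1), a dimer of FOS and JUN proteins that is induced by tissue damage. The 250 bases upstream of the annotated start are shown on the gene's strand from RefSeq (GRCm38.p6), with the motif TGANTCA in capitals.
Anxa2 (chr9:69453433-69453682, plus strand): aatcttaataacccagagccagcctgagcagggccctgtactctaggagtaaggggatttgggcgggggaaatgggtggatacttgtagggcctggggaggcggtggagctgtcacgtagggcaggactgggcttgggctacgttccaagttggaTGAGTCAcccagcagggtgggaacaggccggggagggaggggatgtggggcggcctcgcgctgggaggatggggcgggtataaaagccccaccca
Trem2 (chr17:48346151-48346400, plus strand): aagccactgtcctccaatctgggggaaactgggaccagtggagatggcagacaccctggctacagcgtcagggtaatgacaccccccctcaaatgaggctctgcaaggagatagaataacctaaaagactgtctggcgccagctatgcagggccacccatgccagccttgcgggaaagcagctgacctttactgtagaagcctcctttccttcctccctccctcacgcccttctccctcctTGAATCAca
Cd68 (chr11:69666171-69666420, minus strand): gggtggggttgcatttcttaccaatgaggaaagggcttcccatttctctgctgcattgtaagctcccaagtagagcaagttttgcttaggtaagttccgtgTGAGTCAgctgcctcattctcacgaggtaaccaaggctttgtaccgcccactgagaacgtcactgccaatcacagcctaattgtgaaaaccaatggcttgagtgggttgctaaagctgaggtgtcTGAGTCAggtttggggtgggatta
The motif, searched on both strands, begins 95 bases before the start in Anxa2, 9 bases before it in Trem2, and at 149 and 24 bases in Cd68. Its middle base is G in Anxa2 and Cd68 but A in Trem2, and the shares below count matches with any middle base. Of the 51 entries 36 had a promoter in the table, and 5 of the 36 (13.9%) held the motif (also C1qtnf6 and Ctla2b), against 7.82% of all 27025 promoters. The share was 7.5% (3 of 40) for the 64 lower entries. Of the lists described below, it was 15.8% (3 of 19) for lipid-associated macrophages, 11.1% (4 of 36) for remodelling and 0 of 19 for stellate cells. It was 14.3% (3 of 21) for male-biased, 12.5% (2 of 16) for cholesterol and 0 of 24 for lipogenesis genes. The motif was thus not particular to the higher genes. The match describes the letters only and no binding was measured.

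As lists, genes of several phagocyte states were counted in full. Of 24 genes of lipid-associated and efferocytic macrophages, 21 were above the floor and 10 were higher at 48 h by the 2-fold rule (Gpnmb, Mmp12, Trem2, Lgals3, Cd63, Lpl, Cd9, Lgmn, Spp1 and Msr1), while Fabp5 and Atp6v0d2 were lower. Their median log2 fold was 0.71 at both time points. Of 18 monocyte and recruited macrophage genes, 8 of 17 above the floor were higher and 0 lower, with a median log2 fold at 48 h of 1.05, against 0.91 at 24 h. Cd14, a co-receptor of endotoxin, went against this order, with 5 and 16 control reads, 77 at 24 h and 38 at 48 h, and its 48 h fold was 5.56 times lower than the 24 h fold (1.75 to 20.6). Chil3 and Ly6c2, in the same list, were past 5-fold at both times. Scaled by size factors, the summed reads of the monocyte list were 1.20-fold lower at 48 h and those of the lipid-associated list 1.27-fold lower. Hepatocytes also express members of both lists, such as F10 (coagulation factor X, 3158 control and 2144 APAP reads at 48 h) in the first and Apoe (101478 and 88044 reads) in the second. The neutrophil list had 6 of 11 members higher, and its summed level was 7.90 and 49.8 RPM (reads scaled to a library of 1000000) in the control and APAP pools at 48 h, against 5.56 and 57.7 at 24 h, with 6 of its 16 entries at 0 reads in the 48 h control. Its median log2 fold of 1.48 was -0.06 with a floor of 10 reads.

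Resident macrophages of the liver, the Kupffer cells, were marked by 15 genes, and 1 of these was 2-fold higher at 48 h (Marco, a scavenger receptor, 37 against 169 reads, 3.99-fold, 2.78 to 5.87). The list differed between the time points in its smaller folds. For 6 of its 15 members (C1qa, C1qb, C1qc, Cd5l, Clec4f and Vsig4) the 48 h fold was above the 24 h fold with an interval of the ratio that excludes 1, and for 0 it was below by this criterion. Clec4f, a lectin found on Kupffer cells, had 268 and 261 control reads, 191 after APAP at 24 h and 294 at 48 h. It was thus 1.87-fold lower at 24 h (1.55 to 2.27) and within counting error of the control at 48 h (1.02-fold lower, 0.856 to 1.20). Vsig4, a complement receptor of Kupffer cells, had 70 reads in each control, 73 at 24 h and 126 at 48 h, and Timd4, another marker, had 23, 18, 32 and 23 reads. Summed and scaled by size factors, the resident macrophage genes were within counting error of the control at 24 h (1.02-fold lower, with a fold interval of 0.920 to 1.04) and 1.35-fold higher at 48 h (1.28 to 1.43).

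Lymphocyte markers did not follow. Of 19 T and NK cell genes 7 were above the floor at 48 h and 0 met the 2-fold rule in either direction, and the fold of their sum, scaled by size factors, was 0.940 (0.664 to 1.33). Among B cell genes, Ighm, the heavy chain of immunoglobulin M, was 9.08-fold lower (127 against 16 reads, 5.38 to 16.4) and had also been lower at 24 h (105 against 23). Of 14 dendritic cell genes, 10 were above the floor and 0 met the rule. For Cd74 and H2-Eb1, of antigen presentation, the 48 h fold exceeded the 24 h fold (1.43 times, 1.05 to 1.93, and 1.75 times, 1.09 to 2.83). Of 19 genes of sinusoidal endothelial cells, Lyve1 was higher (30 against 70 reads) and the list median was -0.05.

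**Figure D2:**
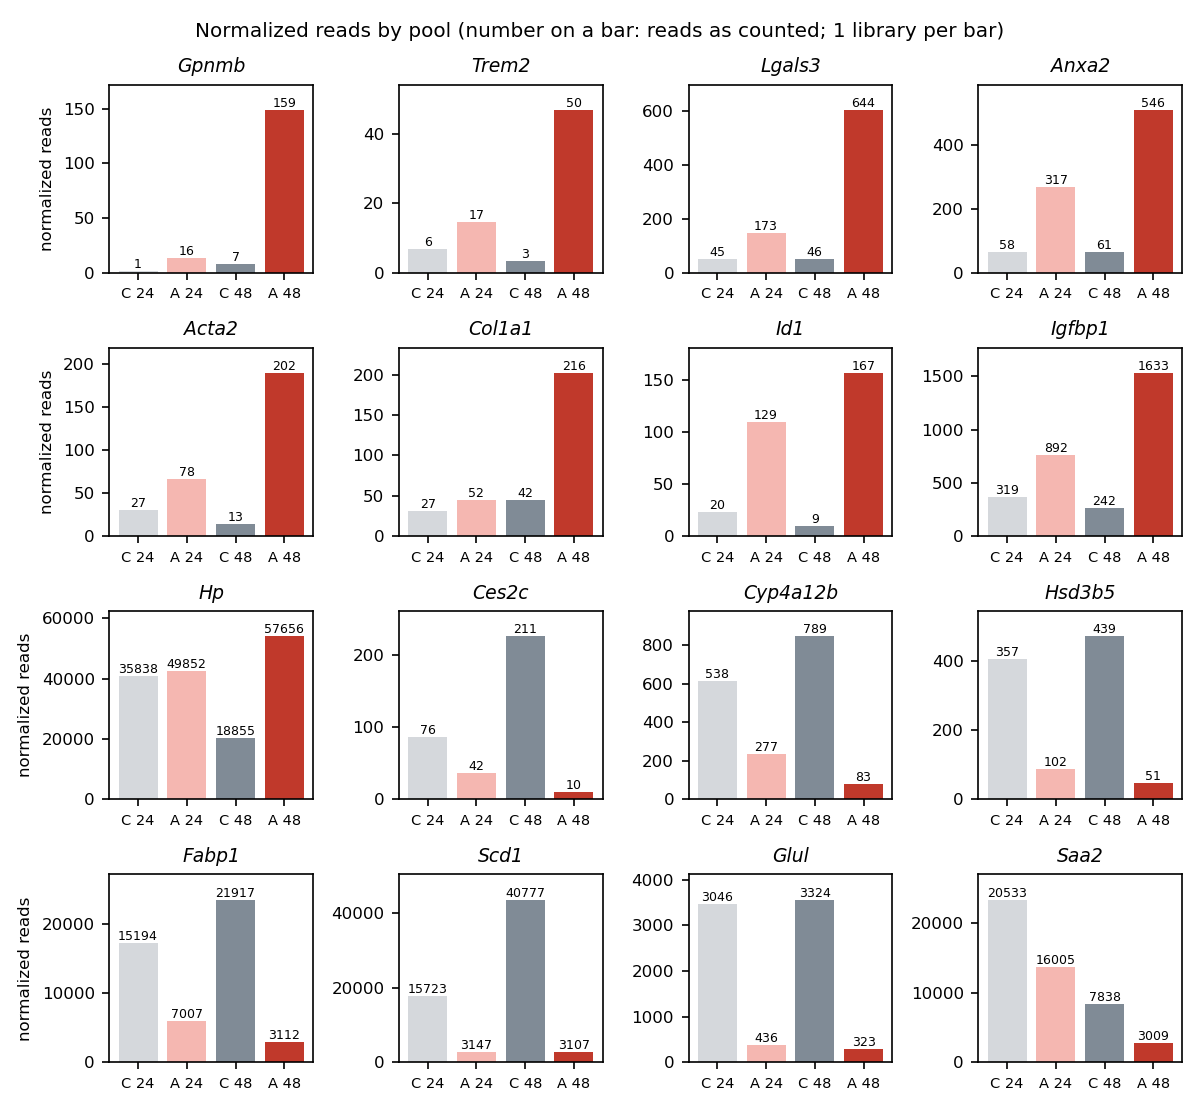
Normalized reads (y axis, linear, from 0) of 16 genes in the 4 pools, control (C) and APAP (A) at 24 h and 48 h, with the reads as counted above each bar and 1 library per bar. Gpnmb, Trem2, Lgals3 and Col1a1 stand highest in the APAP pool at 48 h, Fabp1, Ces2c and Cyp4a12b stand lowest there, and Hp and Saa2 differ between the control pools.

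Transcripts of cytoskeletal proteins, annexins, S100 proteins and galectins were higher as a group. Of 43 genes of cytoskeleton and membrane remodelling, 42 were above the floor, 19 were at least 2-fold higher (45.2%, against 5.0% of all entries) and 0 lower, with a median log2 fold at 48 h of 0.91, against 0.55 at 24 h. S100a6, a calcium-binding protein of dividing and injured cells, had 30 and 26 control reads, 121 at 24 h and 364 at 48 h. It was 12.2-fold higher at 48 h (8.22 to 19), or 4.05 times its 24 h fold (2.21 to 7.42). Anxa2, annexin A2, whose promoter is shown above, had 58 and 61 reads in the controls against 317 and 546. It was 7.83-fold higher (6.00 to 10.4), which is 1.91 times the 24 h fold (1.27 to 2.86). Anxa1, an annexin that dampens inflammation, had 15 and 3 control reads, 24 at 24 h and 41 at 48 h, a ratio of 12 at 48 h (3.81 to 60.3), though only 2.25 against the 24 h control. Vim, vimentin, was 3.78-fold higher (90 against 389 reads) and Lgals1, galectin-1, 3.01-fold higher (153 against 527), both with a 48 h fold above that at 24 h (1.91 times, 1.30 to 2.81, and 1.90 times, 1.41 to 2.56).

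The list split between the time points. For 16 members the 48 h fold was above the 24 h fold and for 10 it was below. Those below included the keratins of hepatocytes and ducts, Krt8 (827 and 798 control reads, 3811 and 2103 after APAP) and Krt18, and tubulins (Tubb2a, Tubb4b, Tubb6 and Tuba1c). Krt8 was 2.30-fold higher at 48 h (2.12 to 2.5) after 3.45-fold at 24 h. S100a10, the partner of annexin A2, had been 1.61-fold higher at 24 h and was 1.16-fold lower at 48 h (1.06 to 1.28). Among 18 cholangiocyte and ductular genes, 16 of them above the floor, 3 were higher (Krt8, Krt18 and Spp1) and 2 lower, and Sox9, a transcription factor of ductular cells, went from 3.97-fold at 24 h to 1.79-fold at 48 h (1.33 to 2.42).

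Stellate cells store vitamin A at rest and become contractile, matrix-producing myofibroblasts after injury. Of 33 genes of stellate cells and myofibroblasts, all above the floor, 16 were at least 2-fold higher (48.5%, against 5.0% of all entries) and 1 lower, with a median log2 fold at 48 h of 1.03, against 0.53 at 24 h. Acta2, smooth muscle actin, had 27 and 13 reads in the controls, 78 at 24 h and 202 at 48 h. It was 13.6-fold higher at 48 h (7.77 to 26.0), 6.28 times the 24 h fold (2.94 to 13.9), and 6.17-fold higher against the 24 h control. Fibrillar collagens were higher at 48 h and within counting error of the control at 24 h. Col1a1 had 27 and 42 control reads, 52 at 24 h and 216 at 48 h. Its fold was 4.50 (3.22 to 6.42) at 48 h, just under the threshold of 5, and 1.44 (0.890 to 2.39) at 24 h. Col1a2 had 26 and 27 control reads, 25 and 99 after APAP, and was 3.21-fold higher at 48 h (2.08 to 5.11), and Col3a1 had 41 and 43 against 38 and 102, or 2.07-fold (1.44 to 3.04). The ratio of the 48 h to the 24 h fold was 3.12 for Col1a1 (1.68 to 5.7), 4.45 for Col1a2 (2.09 to 9.43) and 2.99 for Col3a1 (1.63 to 5.48), so that in all 3 genes the later time point stood out beyond counting error. Postn, periostin of the provisional matrix, had 5, 6, 3 and 27 reads in the order of Col1a1. The basement membrane collagens Col4a1 and Col4a2 did not share this pattern, with 2.09-fold at 48 h and 2.43-fold at 24 h for Col4a1.

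Inhibitors and proteases of the matrix were mixed. Timp1, an inhibitor of metalloproteinases, was already past 5-fold at 24 h and was 11.1-fold higher at 48 h (4 against 51 reads, 4.10 to 42.5). Of 26 genes of extracellular proteases and their inhibitors, 25 were above the floor, 9 higher and 2 lower, with a median log2 fold of 1.03 that was -0.19 with a floor of 10 reads. Ctss, a lysosomal protease of macrophages, was the member whose 48 h fold exceeded that at 24 h (1.94 times, 1.28 to 2.94). Mmp2, a gelatinase of stellate cells, was lower, at 14 against 3 reads. Adam8, a leukocyte protease among the 51, had 0 and 1 control reads and 13 and 23 after APAP. Both control counts were set to 3 for the thresholds, and only this kept Adam8 under 5-fold at 24 h.

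A pair of higher genes with large folds rested on a low control. Snhg1, a host gene of small nucleolar RNAs whose entry pools 6 gene identifiers, had 104 and 6 control reads, 104 at 24 h and 63 at 48 h. It was 9.18-fold higher against the 48 h control (3.99 to 26.0) and 2.00-fold lower against the 24 h control. Tes, testin of focal adhesions, had 8 and 2 control reads against 29 and 27, a ratio of 11.8 at 48 h (2.97 to 102).

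Regulators of growth followed. Id1, an inhibitor of differentiation that is a target of bone morphogenetic proteins (BMP), had 20 and 9 control reads, 129 at 24 h and 167 at 48 h. The APAP pools were of like level and the 48 h control was low, so that the fold was 16.2 (8.34 to 36.1) against the 48 h control and 6.89 against the 24 h control. Of the 20 genes of the BMP and ID axis in the table, 6 were higher (30%: Id1, Smad7, Hamp, Atoh8, Id3 and Acvrl1) and 2 lower (Inhbe and Hamp2). Smad7, a feedback inhibitor, had 34 and 30 reads in the controls against 85 and 126. Hamp, hepcidin, the hormone that lowers plasma iron, had 5953 and 5889 control reads, 15401 at 24 h and 19538 at 48 h. It was 2.90-fold higher at 48 h (2.82 to 2.99) and 1.5 times the 24 h fold (1.44 to 1.56). Inhbe, activin E, was 3.67-fold lower at 48 h (61 against 19 reads, 2.16 to 6.51) and had not been lower at 24 h (39 against 64).

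Igfbp1, a binding protein of insulin-like growth factors that hepatocytes make on fasting and injury, was the most abundant of the 51, with 319 and 242 control reads and 892 and 1633 after APAP. It was 5.90-fold higher at 48 h (5.15 to 6.78) and 2.09-fold at 24 h (1.84 to 2.39). Igfbp2 went the other way, with 1352 and 1661 control reads, 2249 at 24 h and 801 at 48 h, 2.37-fold lower at 48 h (2.18 to 2.58). Of 27 mitogens and their receptors, 21 were above the floor and 3 were higher (Igfbp1, Tnfrsf12a and Il6ra) and 0 lower. Hgf, the hepatocyte growth factor, rested on 12, 6, 8 and 15 reads in the order control 24 h, control 48 h, APAP 24 h and APAP 48 h.

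Cell cycle genes were counted at low depth, and 60 of 93 had under 20 reads in both 48 h libraries. Of 42 genes of DNA replication, 41 were above the floor and 6 were at least 2-fold higher (14.6%), of which 2 also against the 24 h control, and 0 lower, with a median log2 fold at 48 h of 0.36, against 0.05 at 24 h. Mcm6, a subunit of the replicative helicase, had 20 and 17 control reads, 23 at 24 h and 55 at 48 h. It was 2.83-fold higher at 48 h (1.62 to 5.20) and 3.28 times its 24 h fold (1.35 to 7.98). Rrm2, a subunit of ribonucleotide reductase, had been 3.56-fold lower at 24 h (1.60 to 8.70) and was back at 17 against 25 reads at 48 h. Pcna, the sliding clamp, had 62 against 98 reads (1.38-fold, 0.996 to 1.93). Of 51 mitosis genes, 38 were above the floor, 3 were higher (Cdca3, Incenp and Racgap1) and 1 lower, and 42 had under 20 reads in both 48 h libraries. Mki67, a marker of cycling cells, had 1, 4, 1 and 12 reads and Top2a 1, 4, 3 and 10 in the order given for Hgf, and the intervals of both 48 h folds include 1. Ccnd1, cyclin D1, had 118 against 140 reads at 48 h (1.04-fold, 0.806 to 1.34). Cdkn1a, the inhibitor p21, was 3.82-fold higher at 48 h (51 against 223 reads, 2.81 to 5.29), 2.44 times lower than its 24 h fold (1.49 to 4.05).

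Immediate early and stress genes were the counterpart, with higher folds at 24 h. Of 37 such genes 34 were above the floor, 15 were still at least 2-fold higher at 48 h (44.1%) and 1 was lower. Their median log2 fold was 0.81 (48 h) and 1.19 (24 h), and the 48 h fold was below the 24 h fold in 11 and above it in 1. Atf3, a stress-induced transcription factor, had 5 and 9 control reads, 111 at 24 h and 24 at 48 h. Jun, a subunit of AP-1, had 34 and 33 reads in the controls, 197 at 24 h and 53 at 48 h, and was 1.40-fold higher at 48 h (0.893 to 2.24). Socs3, a brake on interleukin-6 signals, went from 9.40-fold at 24 h to 2.52-fold at 48 h (1.43 to 4.67). The 28 genes of endoplasmic reticulum and integrated stress pointed the same way, with the 48 h fold below the 24 h fold in 12 and above it in 1 (Asns). Ddit3, a transcription factor of that response, had 21 and 17 control reads, 162 at 24 h and 37 at 48 h.

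Of the 10 largest gains in normalized reads, 8 were of secreted liver proteins. Hp, haptoglobin, which binds free hemoglobin, had the largest gain. It had 18855 control and 57656 APAP reads at 48 h, 2.67-fold higher (2.63 to 2.72), with 35838 and 49852 at 24 h. The 24 h control was almost as high as the APAP pools, and against it the fold of Hp at 48 h was 1.33. Serpina1e (33806 against 58693 reads), Ahsg (fetuin-A, 37335 against 60849), Hpx (hemopexin, 34986 against 54185), Hamp (5889 against 19538), Serpina3k (41746 against 58368), Apoa4 (5071 against 14450), Fth1 (ferritin heavy chain, 13987 against 24274) and Fga (fibrinogen alpha, 11497 against 19169) followed. The entry Gm42418 (29571 against 45994), a noncoding entry, was also among the 10, but had 56242 reads in the 24 h control and was 1.48-fold lower against it. Of these, Apoa4 and Hamp were past 2-fold against either control pool.

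Acute-phase proteins moved in both directions. Of 27, 10 were at least 2-fold higher at 48 h (37.0%) and 2 lower, but 5 of the 10 were 2-fold higher against the 24 h control too, and both control pools differed in 5 of the 27. Lcn2, lipocalin-2, had 3710 and 673 control reads and 11781 and 3474 after APAP, so that it was 4.51-fold higher against the 48 h control and 1.29-fold lower against the 24 h control. Apcs, serum amyloid P, was higher against both (4.04-fold and 2.43-fold), with 1293 and 822 control reads against 4769 and 3802. Itih3, a hyaluronan-binding serum protein, was 2.52-fold higher (3434 against 9915 reads) and 1.93-fold against the 24 h control. The 2 lower genes were the serum amyloid A genes Saa1 and Saa2, while Saa3 and Saa4 of the same list did not meet the rule as lower. Saa2 had 20533 and 7838 control reads, 16005 at 24 h and 3009 at 48 h, and was 2.98-fold lower at 48 h (2.86 to 3.11) and 8.27-fold lower against the 24 h control. Saa1 gave the same picture, with 11226 against 4557 reads. The fibrinogen genes Fga, Fgb and Fgg had been 2.82-fold, 2.70-fold and 2.48-fold higher at 24 h and were 1.46-fold, 1.34-fold and 1.32-fold higher at 48 h. Metallothioneins Mt1 and Mt2 stayed past 5-fold at both time points.

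Among the lower genes, those with a male-biased, growth hormone-dependent pattern in mouse liver stood out. The pulsatile secretion of growth hormone in males maintains these genes through STAT5. Of 30 such genes, 21 were at least 2-fold lower at 48 h (70.0%, against 4.57% of all entries) and 0 higher, with a median log2 fold at 48 h of -1.48, against -0.34 at 24 h. The 48 h fold was below the 24 h fold in 23 and above it in 2. Of the 21 lower genes, 17 were 2-fold lower against the 24 h control as well. Serpina1e, of the same list, went the other way and was 1.52-fold higher at 48 h. Cyp4a12b, a fatty acid hydroxylase, had 538 and 789 control reads, 277 at 24 h and 83 at 48 h. It was 10.9-fold lower at 48 h (8.66 to 13.8), 4.19 times lower than at 24 h (3.19 to 5.55). Cyp4a12a, whose 3′ end is 98.6% identical, had 904 and 1307 against 441 and 176 reads. Hsd3b5, a steroid dehydrogenase of male liver, was 9.84-fold lower (357 and 439 control reads against 102 and 51, 7.35 to 13.4). Cyp7b1, an oxysterol hydroxylase, was 4.24-fold lower at 48 h (3.60 to 5.02) after 1.59-fold at 24 h, and Slco1a1, an organic anion transporter, 4.68-fold (4.0 to 5.50) after 2.66-fold. Promoters were also searched on both strands for TTCNNNGAA, the letters of the STAT site. In the male-biased list 1 of 21 promoters held them (4.76%, Moxd1), against 8.13% of all 27025. The shares were 2.78% (1 of 36) for the higher and 5.0% (2 of 40) for the lower entries of 48 h and not 24 h. No binding was measured.

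The major urinary proteins (Mup), lipocalins that male mice excrete as pheromone carriers, made up much of this group. Their 3′ ends are near-identical (95.2% to 100% for Mup11, for example), so single entries are uncertain and the family was also summed. The 21 numbered Mup entries together took 58609 and 60399 RPM in the control pools, 71493 after APAP at 24 h and 34523 at 48 h. The sum was thus 2.10-fold lower at 48 h (2.09 to 2.12) and 1.07-fold higher at 24 h (1.07 to 1.08). All 21 had a 48 h fold below the 24 h fold, 16 were at least 2-fold lower at 48 h and 0 at 24 h, and 11 of the 16 were 2-fold lower against the 24 h control as well. Folds ranged from 1.47-fold lower (Mup20, 31392 against 24352 reads) to 3.85-fold lower (Mup17, 9930 against 2952). Mup20, whose end matches that of Mup11 over 187 bases only (95.2% identity), had 31293 reads in the 24 h control and 48365 in the 24 h APAP pool. Of 20 Mup pseudogene entries 16 were above the floor and 12 lower, among them Mup-ps8 (46 against 0 reads, at least 17.5-fold lower) and Mup-ps15 (43 against 3).

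Genes with a female-biased pattern were called in both directions. Of 30, 20 were above the floor and 6 were higher (30%, against 5.0% of all entries), among them Sult1e1, Fmo2, Abcd2, Cux2 and Cyp4a14. A further 4 were lower (20%, against 4.57%). Of the 6 higher and 4 lower genes, 4 and 2 were so against the 24 h control too. The list median was 0.11 at 48 h and -0.35 at 24 h, and -0.19 at 48 h with a floor of 10 reads. Cux2, a female-specific repressor, was 2.23-fold higher (18 against 46 reads, 1.27 to 4.10), but 1.35-fold against the 24 h control. Sult1e1, estrogen sulfotransferase, was past 5-fold at both times. Among 19 genes of growth hormone and IGF signalling, 3 were higher (Igfbp1, Socs3 and Cux2) and 2 lower (Bcl6 and Igfbp2). Ghr, the growth hormone receptor, was 1.75-fold lower at 48 h (2158 against 1410 reads, 1.64 to 1.87) and 2.42-fold at 24 h, and Bcl6, a repressor that is more abundant in males, was 3.01-fold lower (137 against 52 reads, 2.17 to 4.23). Igf1 was 1.26-fold lower and the STAT5 feedback gene Socs2 had 72 against 98 reads.

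**Figure D3:**
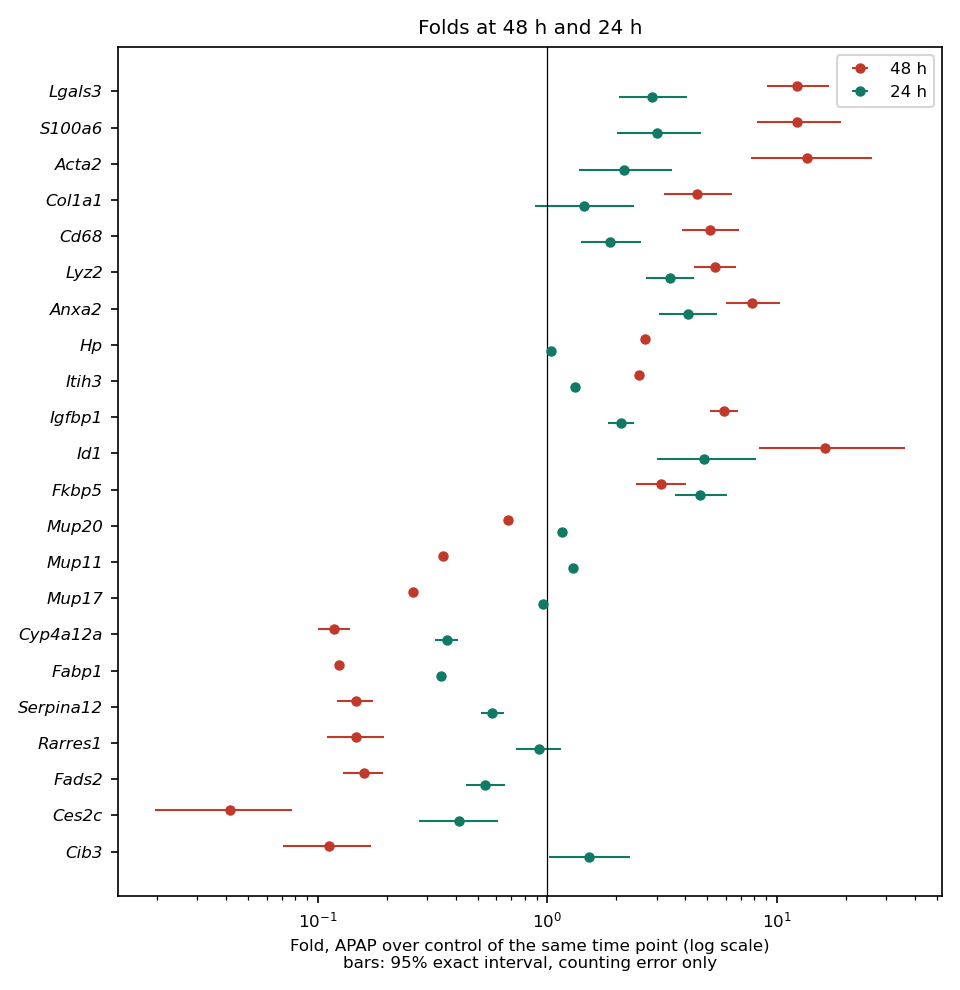
Folds of APAP over control at 48 h (red) and 24 h (green) for 22 genes on a log scale, with 95% exact intervals that cover counting error only (where none is seen, the interval is narrower than the point). Macrophage, matrix and S100 genes at the top lie further to the right at 48 h, Mup and other male-biased genes lie further to the left, and Fkbp5 is an example with the larger fold at 24 h.

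Enzymes that conjugate or hydrolyse drugs and lipids were further below the control at 48 h than at 24 h. Of 48 conjugation and detoxification genes, 46 were above the floor, 24 were at least 2-fold lower (52.2%) and 0 higher, with a median log2 fold at 48 h of -1.11, against -0.69 at 24 h, and the 48 h fold was below the 24 h fold in 24 and above it in 6. Of the 24 lower genes, 18 were 2-fold lower against the 24 h control as well. Ces2c, a carboxylesterase, had the largest fold among the 64 with counts of 3 or fewer set to 3. It had 76 and 211 control reads, 42 at 24 h and 10 at 48 h, and was 24.1-fold lower (12.9 to 51.1), or 9.22-fold lower against the 24 h control. The pseudogene Ces2d-ps, which shares its 3′ end (98.7% identity), had 42 against 2 reads. Sult2a8, a sulfotransferase, was 8.36-fold lower (1733 against 237 reads, 7.30 to 9.62) after 4.82-fold at 24 h, and Ugt2b1, a glucuronosyltransferase, 5.58-fold (967 against 198 reads, 4.79 to 6.54) after 2.96-fold. Ces3b had 1269 and 1748 control reads, 1052 at 24 h and 467 at 48 h.

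Genes of pericentral hepatocytes, the zone of APAP toxicity, were low at both time points. Of 22, 15 were at least 2-fold lower at 48 h (68.2%) and 14 at 24 h, 0 were higher, and 14 of the 15 were 2-fold lower against the 24 h control as well. The summed level of the 22 was 6655 and 6843 RPM in the controls, 2949 at 24 h and 2575 at 48 h. The list divided by gene. Cyp2e1, the main enzyme that activates APAP, had 6910 and 7614 control reads, 5742 at 24 h and 3213 at 48 h, and its 48 h fold was 1.69 times lower than that at 24 h (1.60 to 1.78). Oat, ornithine aminotransferase, had 580 and 1016 against 325 and 225 reads and was 5.16-fold lower (4.47 to 5.99) after 2.38-fold at 24 h. Its level was higher in the 48 h than in the 24 h control, so that this step lies partly in the controls. Cyp2c37 was 7.10-fold lower (596 against 96 reads, 5.71 to 8.90). In contrast Cyp1a2 (3122 against 1131 reads, 3.16-fold lower), Cyp2c29 and Rgn were less far below the control at 48 h than at 24 h. Glul, glutamine synthetase of the innermost hepatocytes, was past 5-fold at both times, with 3324 against 323 reads at 48 h. Of 36 cytochrome P450 genes of drug metabolism above the floor, 14 were lower (38.9%) and 1 higher (Cyp3a13), at a median log2 fold of -0.73. Cyp3a11 was 11.7-fold lower (1924 against 188 reads, 10.1 to 13.7), 2.15 times further than at 24 h (1.80 to 2.58).

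Periportal genes were nearer to the control at 48 h than at 24 h. Of 21, 2 were higher (Pck1 and Sdsl) and 2 lower (Cyp2f2 and Fbp1) at 48 h, and the 48 h fold was above the 24 h fold in 14 and below it in 3. Summed, they were 1.54-fold lower at 24 h (1.52 to 1.55) and 1.25-fold lower at 48 h (1.24 to 1.26). Ass1, of the urea cycle, had 12306 and 17896 control reads, 7872 at 24 h and 14651 at 48 h, and so passed from 2.09-fold to 1.40-fold lower. Of 39 genes of gluconeogenesis and amino acid catabolism, 27 had a 48 h fold above the 24 h fold and 8 below, while 2 were 2-fold higher and 8 lower at 48 h. Against the 24 h control 1 and 2 of these were still 2-fold higher and lower, and the list median turned from -0.18 to 0.06. Pck1, the key enzyme of gluconeogenesis, remained higher (904 against 3417 reads, 3.31-fold), and G6pc, glucose-6-phosphatase, remained lower (527 against 202, 2.98-fold).

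Genes of lipid metabolism were lower as a group. Of 29 lipogenesis genes above the floor 23 were at least 2-fold lower at 48 h (79.3%) and 23 at 24 h, with medians of -2.03 and -1.89. Within the list, the desaturase Fads2 (257 and 644 control reads) was 6.29-fold lower at 48 h (5.16 to 7.73) and 1.85-fold at 24 h, a step that lies partly in the controls. The elongase Elovl5 was 5.93-fold lower (2332 against 450 reads, 5.35 to 6.57) and Pklr, liver pyruvate kinase, 6.56-fold (1485 against 259, 5.74 to 7.51) after 4.96-fold at 24 h. Srebf1, their regulator, came closer to the control, from 2.56-fold to 1.46-fold lower (451 against 353 reads, 1.27 to 1.68).

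Cholesterol synthesis was lower at both time points. Of 23 genes, 15 were at least 2-fold lower at 48 h (65.2%), after 12 at 24 h, and 0 higher, all 15 also against the 24 h control. The median log2 fold was -1.43 (48 h) and -1.01 (24 h), and the 48 h fold was below the 24 h fold in 13 and above it in 2. Hmgcs1, which makes the precursor of mevalonate, had 1686 and 1701 control reads, 942 at 24 h and 551 at 48 h. It was 3.53-fold lower at 48 h (3.20 to 3.89), 1.48 times further than at 24 h (1.30 to 1.68). Tm7sf2, a sterol reductase, was past 5-fold, with 520 and 1023 control reads against 306 and 226 (5.18-fold lower, 4.48 to 6.01). Its level was higher in the 48 h than in the 24 h control, and against the 24 h control it was under 5-fold lower. Insig1, a sensor of sterols, was closer to the control at 48 h (1.51-fold lower). The promoter of Hmgcs1 is shown from RefSeq (GRCm38.p6) because it holds a sterol regulatory element, the site of the SREBP factors, here TCACNCCAC in capitals.
Hmgcs1 (chr13:119690101-119690350, plus strand): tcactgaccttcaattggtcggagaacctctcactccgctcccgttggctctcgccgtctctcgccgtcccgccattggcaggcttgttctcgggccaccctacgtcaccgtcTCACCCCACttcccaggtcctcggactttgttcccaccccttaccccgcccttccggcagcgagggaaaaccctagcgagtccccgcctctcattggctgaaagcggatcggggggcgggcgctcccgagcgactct
The element begins 137 bases before the start. It was found on either strand in 1 of 16 promoters of the list that were in the table (6.25%) and in 1.22% of all 27025. The share was near this in other sets, with 2 of 36 for the higher entries (5.56%), 1 of 19 for lipid-associated macrophages (5.26%) and 1 of 24 for lipogenesis (4.17%). It was 0 of 40 for the lower entries and 0 in the remodelling, stellate and male-biased lists.

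The sum of the fatty acid oxidation genes was below the control at 24 h and further below it at 48 h. Of 34 genes, 32 were above the floor, 7 were at least 2-fold lower at 48 h (21.9%) and 1 higher, against 6 and 3 at 24 h, and the 48 h fold was below the 24 h fold in 17 and above it in 4. The summed level was 8335 and 9378 RPM in the controls, 6213 at 24 h and 3949 at 48 h, or, scaled by size factors, 1.53-fold lower at 24 h and 2.86-fold at 48 h. Fabp1 alone held 21917 of the 48691 reads of the list in the 48 h control, so that the sums follow it in large part. The median log2 fold of the list was -0.17 at 24 h and -0.54 at 48 h. Fabp1, the fatty acid-binding protein of hepatocytes, was the most abundant of the 64. It had 15194 and 21917 control reads, 7007 at 24 h and 3112 at 48 h, and was 8.05-fold lower (7.76 to 8.36), 2.78 times further than at 24 h (2.65 to 2.92) and 5.92-fold lower against the 24 h control. Acaa1b, a peroxisomal thiolase, was 6.86-fold lower (5985 against 997 reads, 6.42 to 7.35) after 2.85-fold. In Angptl4 and Plin2 the time points parted. Angptl4, an inhibitor of lipoprotein lipase, was 3.92-fold higher at 24 h (2.98 to 5.22) and had 102 against 109 reads at 48 h, and Plin2, a lipid droplet protein, went from 1.58-fold higher to 1.72-fold lower (1202 against 800 reads, 1.57 to 1.88). The control pools differed in Cyp4a10 (1968 and 731 reads) and Cyp4a14 (2022 and 298), both induced by fasting, so that their folds depend on the control.

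Bile acid genes included 11 of 26 that were lower (42.3%) and 1 higher (Abcc4, an export pump), and 6 of the 11 were 2-fold lower against the 24 h control too. Cyp7a1, the rate-limiting enzyme of bile acid synthesis, had 147 and 187 control reads, 30 at 24 h and 102 at 48 h. It was 6.54-fold lower at 24 h and 2.10-fold at 48 h (1.64 to 2.70), a difference between the time points beyond counting error (3.12 times, 1.93 to 5.13). Cyp8b1, which makes cholic acid, was 5.11-fold lower at 48 h after 8.80-fold. Slc10a1, which takes up bile acids from blood, was 2.77-fold lower.

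Other lower genes of the 64 fell in no list. Cib3, a calcium-binding protein, had 38 and 195 control reads, 77 at 24 h and 25 at 48 h. It was 8.92-fold lower against the 48 h control (5.86 to 14.1) and 1.84-fold against the 24 h control. Serpina12, an adipokine of the serpin family, had 687 and 878 against 529 and 147 reads, or 6.83-fold lower (5.73 to 8.19), and was past 5-fold against either control. Rarres1 had 146 and 344 control reads, 179 at 24 h and 58 at 48 h (6.78-fold lower, 5.12 to 9.12), and was within counting error of the control at 24 h. This difference, too, lies partly in the controls. Pltp, phospholipid transfer protein, was 5.19-fold lower (731 against 161 reads, 4.37 to 6.20), and Srd5a1, a steroid reductase, 6.93-fold (400 against 66, 5.33 to 9.13). Klk1b4 (56 against 5 reads), Zbtb7c (39 against 4), Clstn3 (44 against 5) and Dntt (83 against 11) had the further large folds, on few reads. Ccr3, an eosinophil receptor, had 1 and 37 control reads at 24 h and 48 h and 0 and 2 after APAP, so that the 48 h control stands alone.

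The 48 h control pool also held transcripts of the exocrine pancreas. Of 14 such genes in the table, 11 were above the floor and 9 lower in the APAP pool (0 of them against the 24 h control), and their summed level was 17.1 RPM in the 24 h control, 36.8 in the 48 h control, and 11.2 and 13.6 after APAP. Ctrb1, chymotrypsinogen, had 22 reads in the 48 h control and 0 in each of the other 3 pools, and Prss2 and Cela3b had 8 and 10 reads there and 0 elsewhere. Ctrb1, Ctrc (32 against 5 reads) and Amy2a3 (19 against 0) are 3 of the 64 lower genes. Of the 10 genes of erythrocytes, 2 were lower (Alas2 and Hbb-bt), and their summed level was 3688 and 2505 RPM in the controls and 2947 and 1617 after APAP. The part of such admixtures in the other folds was not tested.

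The largest losses in normalized reads were of abundant transcripts, which apart from Scd1 and Fabp1 were under 2-fold lower. Scd1, a desaturase that was past 5-fold at both times, had the largest loss (40777 against 3107 reads at 48 h). It was followed by mt-Co1 (79165 against 53849), Gm29216, Apoa2 (76976 against 54342), Apoe (101478 against 88044), mt-Nd2, mt-Nd1, Fabp1, Gm28437 and Mup3 (41193 against 28500). Gm29216 and Gm28437 are nuclear copies of mitochondrial genes whose ends are 100% identical to mt-Co1 and mt-Co3, and their reads cannot be told apart. The 13 protein-coding genes of the mitochondrial genome had, at 48 h, a median log2 fold of -0.41, against -0.32 at 24 h. Of 40 nuclear genes of oxidative phosphorylation 1 was 2-fold lower (Atp5c1, 884 against 466 reads), but the median was -0.57 at 48 h and -0.43 at 24 h, and the 48 h fold was below the 24 h fold in 20 and above it in 3. Cytosolic ribosomal proteins had a median of 0.23 with 0 of 39 past 2-fold. The secreted hepatocyte markers had a median of -0.21 with 0 of 11 past 2-fold.

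Shares in the remaining lists stand against 5.0% of all entries higher and 4.57% lower. Chemokines and cytokines had 8 of 22 genes higher (36.4%: Ccl2, Cxcl1, Ccl7, Il1rn, Ccl6, Cxcl14, Ccl3 and Il33) and 1 lower (4.55%: Cxcl9, 45 against 13 reads). Ccl6 rested on the most reads (55 against 236). NRF2 targets had 4 of 37 higher (10.8%) and 7 lower (18.9%), and the 48 h fold was below the 24 h fold in 12 and above it in 3. Hmox1, heme oxygenase 1, was 2.33-fold higher (66 against 176 reads, 1.75 to 3.14) and 2.24-fold at 24 h. Of 23 p53 targets above the floor 4 were higher and 0 lower, and of 21 YAP and TEAD targets 4 and 0. Interferon-stimulated genes had 4 of 37 higher (10.8%) and 3 lower (8.11%), of which 1 and 2 also against the 24 h control. Isg15 (20 against 48 reads) had a 48 h fold 2.65 times that at 24 h (1.24 to 5.68). Near the shares of all entries by the 2-fold rule were complement and coagulation genes, with 4 of 52 higher (7.69%) and 2 lower (3.85%). So were hepatocyte transcription factors, with 1 of 31 (3.23%: Gata6, 19 against 44 reads) and 0, and endoplasmic reticulum stress genes, with 2 of 27 (7.41%) and 0. Of the 52 complement and coagulation genes, however, 2 were at least 5-fold higher (up to 8.45-fold), against 0.474% of all entries. Clock genes had 3 of 22 higher (13.6%) and 3 lower (13.6%), and G1 cyclins and inhibitors 4 of 22 (18.2%) and 1 (4.55%).

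**Figure D4:**
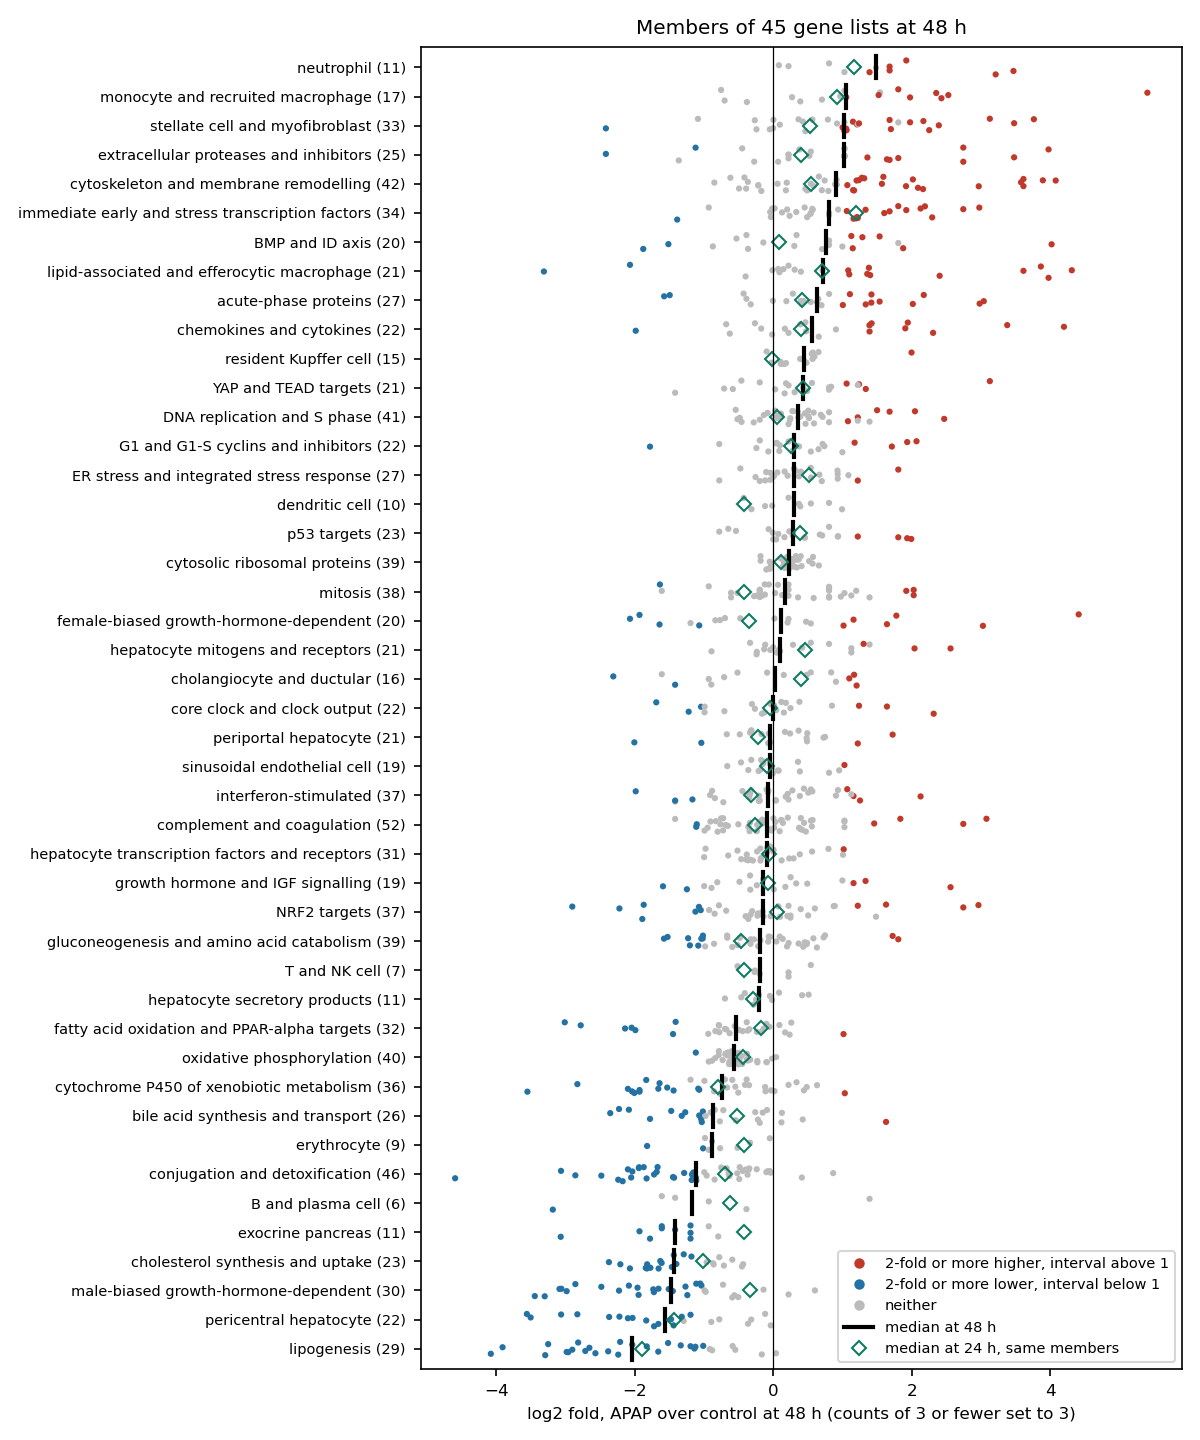
Log2 folds of APAP over control at 48 h (x axis) for the members of 45 gene lists above the floor (number in brackets), 1 row per list, sorted by the median. Red and blue points meet the 2-fold rule, black bars are medians at 48 h and open diamonds those of the same members at 24 h. Lipogenesis, pericentral, male-biased and cholesterol genes lie lowest (medians of -2.03 to -1.43), neutrophil, monocyte, matrix and remodelling genes highest (the neutrophil and protease medians fall to -0.06 and -0.19 with a floor of 10 reads), and the male-biased list shows the widest gap between both medians.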

How the data were processed

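The 4 libraries were assigned to groups by the labels. The authors pooled RNA per group, dropped duplicate reads by molecular identifiers, removed low-quality bases (cutadapt) and poly(A) tails, aligned the rest to mm10, and deposited an HTSeq count for each gene entry (the submitters' processing notes also name DESeq2), which is the value used here. The mapper and the versions are not given in the sources used here. Columns of the authors' own ratios, p-values and RPM in the same table were not used.

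In R 4.3.3, scaling used the median of ratios over 16338 genes (DESeq2 1.42.0), or TMM (edgeR 4.0.16) as one alternative. Folds and 95% intervals (Clopper-Pearson, and exact conditional for the ratio of folds) were computed in Python 3.11.15 with scipy 1.17.1 after tests on simulated data. With 1 library per group neither the DESeq2 nor the edgeR test was run. Named genes are the 15 higher and 15 lower with the largest 5-fold changes at 48 h and not at 24 h (at least 20 reads, no clone-type symbols), the 10 largest gains and losses of reads, 8 genes in opposite directions, and list members. Ptafr, Ms4a6c, Coro1a, Lpxn, Serpina12, Rarres1, Pltp, Srd5a1, Ctrc and Amy2a3 were added after their values were seen. The comparison, the members and the 45 lists (1252 of 1274 entries in the table) were chosen with earlier results of these data known. GENCODE M21 (GRCm38) matched 26985 entries, and the last 300 bases of 451 genes were compared by blastn 2.17.0 (95% identity over 100 bases), by which 80 shared an end with another gene. Of all entries, 2429 hold more than 1 gene identifier, and their reads may belong to either gene. Some members of the lists and of the named genes are not reported here.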

Additional observations from a re-analysis of the deposited data

Results flagged for a closer look

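By the 2-fold rule, 9 genes were called in opposite directions at 24 h and 48 h, 5 of them higher at 48 h. The ratio of the 48 h to the 24 h fold, with counts of 3 reads or fewer set to 3, is given for the 8 with the largest ratios, each with an exact interval of the ratio outside 1. Reads are in the order control 24 h, control 48 h, APAP 24 h, APAP 48 h. It was 0.116 for Moxd1, a male-biased monooxygenase-like gene (25, 34, 74 and 10 reads), which was 2.22-fold higher at 24 h and 3.89-fold lower at 48 h. It was 0.214 for the glucose transporter Slc2a3 (30, 25, 85 and 13) and 5.14 for the interferon-induced Oasl2 (21, 11, 13 and 30). It was 0.106 for the cell cycle factor E2f2 (1, 9, 11 and 2), 0.0687 for 3110045C21Rik (3, 17, 15 and 5), 9.92 for Gm8744 (16, 4, 8 and 17), 6.74 for Snord2 (13, 0, 6 and 8) and 6.35 for Gm7467 (7, 0, 1 and 7). In these 5 every library had fewer than 20 reads. The ninth gene is Malat1, a noncoding RNA.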

How the results depend on the processing

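With TMM factors, a minimum of 20 reads, the control pools exchanged, or the interval required outside 1, every count computed stayed within 1.5 times the main value. With library totals, 138 genes were 5-fold higher at 48 h and 107 of these not at 24 h, and 1449 and 424 met the 2-fold rule as higher and lower. With a pseudocount of 1 and no floor, 297 and 221 genes were 5-fold higher and lower, 245 and 173 of them not at 24 h. With a floor of 10 reads 28 and 71 were 5-fold higher and lower, 19 and 35 of them not at 24 h, and 512 were higher by the 2-fold rule. Against the sum of both control pools 131 were 5-fold higher, 89 not at 24 h, and 38 were lower and not at 24 h. With the control pools exchanged 90 and 99 were 5-fold higher and lower, 61 and 52 of them not at 24 h. Signs turned for Snhg1 (log2 fold -1.0 with the other control pool and -0.0392 with the summed pools), 3110045C21Rik (0.46), Gm8744 (-0.19), Snord2 (-0.98) and Gm7467 (-0.28) with the other control pool, for Gm42418 (-0.57 with the other control pool and -0.13 with the summed pools), and for Snord2 and Gm7467 (-0.19 each) with the floor of 10, which sets both libraries to the same count. Of the 45 list medians, 19 changed sign under at least 1 alternative, among them neutrophil (-0.06) and protease genes (-0.19) with the floor of 10. The cause of the other changes was not tested. No paired analysis was possible because each group has 1 library. Depth limits the cell cycle genes, of which 60 of 93 had under 20 reads in both 48 h libraries.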
